A study of Mus musculus with 2 samples.

Results

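Zinc finger genes whose mouse symbol is Zfp followed by a number were followed in the skin epithelium of embryos with and without Mettl3. The files list 368 such symbols. A member was a symbol with at least 200 unique molecular identifiers (UMIs, each counted as 1 captured mRNA) over both libraries in barcodes with at least 1800 detected genes, which gave 234 members of 10184 genes at that level and 27998 genes listed. Members were thus chosen by their level over both libraries, and they were taken up with their ratios known, so every ratio here is a description without a test. Of the other symbols, 20 had no UMI, 23 had fewer than 20 and 91 had between 20 and 199. Just inside the minimum lay Zfp319 with 202 UMIs (101 and 101) and Zfp747 with 201 UMIs (96 and 105, Ctrl and cKO). Just outside lay Zfp454 with 192 (112 and 80) and Zfp459 with 191 (78 and 113).

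The Ctrl library came from C57BL/6 embryos with 1 floxed and 1 intact Mettl3 allele (Mettl3 fl/+) and the cKO library from embryos with both alleles floxed (Mettl3 fl/fl), both at embryonic day 17 (E17). Both groups also carry the reporter Rosa16-YFP fl/+ and the transgene K14Cre, which acts in cells that use the keratin 14 promoter and in their descendants, so Ctrl cells have lost 1 Mettl3 allele where Cre acted. The sequenced cells were sorted as live, YFP+ and positive for integrins, a sort that enriches for progenitors, and the sources used here do not say how many embryos went into a library. With 1 library per condition nothing measures the spread between embryos, and each 95% interval covers counting error only.

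Classical zinc fingers are small protein folds in which 2 cysteines and 2 histidines (C2H2) hold a zinc ion, and strings of them read DNA. Many mouse genes of this kind carry a KRAB domain, which recruits the corepressor TRIM28 and the histone methyltransferase SETDB1 to silence the bound sites, often in transposable elements. Zfp36, Zfp36l1 and Zfp36l2 are of another kind: their CCCH fingers bind AU-rich elements in mRNA and recruit the deadenylase that shortens the poly(A) tail. METTL3 is the catalytic subunit of the complex that writes N6-methyladenosine on mRNA, a mark found mostly in long exons and near stop codons, and it was not measured in these libraries. The symbol Zfp thus joins proteins of unlike function.

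All 234 members had a coding transcript in the reference annotation, and 225 held at least 1 C2H2 pattern in its translation, with a median of 9.5 and at most 36 in Zfp142. The KRAB pattern was found in 87, and the 4 members with CCCH patterns alone were Zfp36, Zfp36l1, Zfp36l2 and Zfp330. Chromosome 7 held 54 members and chromosome 17 held 33. The stretches printed here code for 1 finger each, to show the kinds of fold behind the symbol in the members with the highest ratio, with an intronless reading frame, with the lowest ratio and with RNA-binding fingers. Capitals mark the codons of the cysteines and histidines that hold the zinc, and sequences and positions are those of GENCODE on GRCm38.
Zfp442: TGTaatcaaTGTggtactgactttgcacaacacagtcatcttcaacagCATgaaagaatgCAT
Zfp281: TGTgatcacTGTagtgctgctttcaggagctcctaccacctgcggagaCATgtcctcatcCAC
Zfp346: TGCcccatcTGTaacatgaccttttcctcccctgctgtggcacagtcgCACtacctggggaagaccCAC
Zfp36l1: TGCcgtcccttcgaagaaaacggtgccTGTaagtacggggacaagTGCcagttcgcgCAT
The Zfp442 stretch is the first of 17 C2H2 patterns and lies in the last of 4 coding exons, at chr2:150409438-150409500 on the minus strand. The Zfp281 stretch is the first of 3 and lies in the gene's only coding exon, at chr1:136626063-136626125 on the plus strand. The Zfp346 stretch is the second of 4 and lies in coding exon 4 of 7, at chr13:55115513-55115581 on the plus strand, and its longer spacing between histidines sets it apart from the fingers of Zfp442 and Zfp281. The Zfp36l1 stretch is the first of 2 CCCH patterns and lies in coding exon 2 of 2, at chr12:80110189-80110248 on the minus strand.

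The kept barcodes numbered 4447 in Ctrl and 3577 in cKO, with 43874554 and 34116275 UMIs and medians of 8941 and 8581 UMIs per cell. The median mitochondrial share was 4.66% and 5.01%, and 16 barcode sequences were kept in both libraries. Xist UMIs were found in 99.8% of kept Ctrl cells, while all kept cKO cells together held 1. The libraries thus differ in the sex of their embryos, and sex and genotype cannot be told apart. Mettl3 itself had 557 and 211 UMIs, or 12.7 and 6.18 UMIs per 1000000 UMIs of the library (CPM); 3′ tags do not read the deleted exon and so give no check of the deletion. Summed markers of Merkel cells, melanocytes and neural crest, immune cells and endothelium stayed between 4.51 and 36.7 CPM in Ctrl and between 5.16 and 33.7 in cKO over all kept cells. Among single markers Ptprc, Atoh1, Mlana, Pecam1 and Col1a1 lay between 0 and 5.83 CPM in each of the 4 gates described later. The HF WNThi gate of the hair follicle nevertheless summed to 43.3 and 36.2 CPM of the immune list, whose highest gene was Cd74, to 25.1 and 19.6 CPM of the Merkel list and to 2221 and 1930 CPM of the mesenchymal list. Over all kept cells the mesenchymal list summed to 741 and 646 CPM, nearly all of it Dcn, without which it summed to 22.3 and 24.4. The part of these differences in the ratios was not tested.

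Over all kept cells the middle of the members' ratios lay slightly above that of all genes. Their summed level was 4084 CPM in Ctrl and 4479 CPM in cKO, a ratio of 1.10 (1.09 to 1.10). The ratio of cKO to Ctrl was above 1 in 181 members and below 1 in 53. The median log2 ratio was 0.18, with quartiles of 0.02 and 0.37, while all 10184 genes had a median of 0.02 with quartiles of −0.14 and 0.21, and 53.1% of them lay above 1. Counting intervals excluded 1 on the high side for 98 members and on the low side for 17, and for 3167 and 2530 of all genes.

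Large ratios were no more frequent among the members than in the rest of the transcriptome. In all, 11 members (4.70%) were at least 1.5-fold higher in cKO, against 4.71% of all genes, and 1 member (0.43%) was at least 1.5-fold lower, against 1.47%. The members thus differed from all genes in the middle of the distribution and not in the share of large increases. The plot of both libraries' levels shows the members' points mostly between the line of equality and the upper 1.5-fold line.

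**Figure D1:**
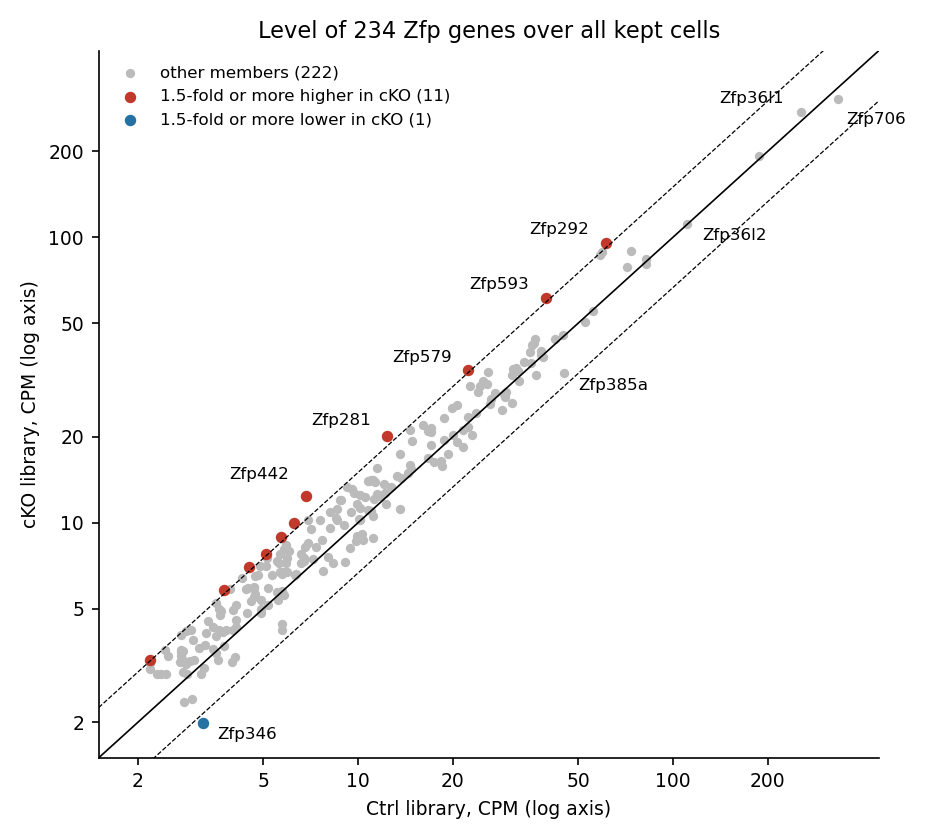
Level of each of the 234 members in the Ctrl library (horizontal axis) and the cKO library (vertical axis), in CPM over all kept cells on log axes; the solid line marks equal levels and the dashed lines a 1.5-fold difference. Of the 234 points 181 lie above the solid line, 11 lie on or above the upper dashed line and 1, Zfp346, lies below the lower one.

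Zfp442, a KRAB zinc finger gene on chromosome 2, had the highest ratio. It had 299 UMIs (6.81 CPM) in Ctrl and 423 UMIs (12.4 CPM) in cKO, a ratio of 1.82 (1.57 to 2.12). Zfp281, a regulator of pluripotency in mouse embryonic stem cells, followed with 543 and 688 UMIs, or 12.4 and 20.2 CPM, a ratio of 1.63 (1.45 to 1.83). These were the only 2 members whose ratio exceeded 1.6.

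The other members that were at least 1.5-fold higher spanned levels from a few to nearly 100 CPM. Zfp292 had by far the most UMIs of them, 2690 in Ctrl and 3261 in cKO (61.3 and 95.6 CPM, ratio 1.56, 1.48 to 1.64). Zfp593, whose yeast counterpart Bud20 takes part in ribosome biogenesis, had 1732 and 2096 UMIs (39.5 and 61.4 CPM, ratio 1.56, 1.46 to 1.66). The related genes Zfp518a and Zfp518b moved alike, Zfp518a with 275 and 341 UMIs (6.27 and 10.0 CPM, ratio 1.59, 1.36 to 1.88) and Zfp518b with 164 and 198 (3.74 and 5.80 CPM, ratio 1.55, 1.26 to 1.92). The human counterpart of Zfp518b is known as a partner of the histone methyltransferases G9a and GLP. Zfp579 had 983 and 1170 UMIs (22.4 and 34.3 CPM, ratio 1.53, 1.41 to 1.67). Zfp770 (ratio 1.57), Zfp763 (1.55), Zfp574 (1.53) and Zfp251 (1.51) completed the group at 2.19 to 5.68 CPM in Ctrl, and the interval of Zfp251, with 96 and 113 UMIs, reached down to 1.14.

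At the low end only Zfp346, which encodes the double-stranded RNA-binding zinc finger protein JAZ, passed 1.5-fold. It had 141 UMIs (3.21 CPM) in Ctrl and 68 UMIs (1.99 CPM) in cKO, a ratio of 0.620 (0.457 to 0.834). Zfp866 followed with 251 and 143 UMIs, a ratio of 0.733 (0.592 to 0.903). Zfp385a, an RNA-binding partner of p53 also called Hzf, was the one well-counted gene of this group, with 1976 and 1140 UMIs (45.0 and 33.4 CPM), a ratio of 0.742 (0.689 to 0.798). The 7 others of the 10 lowest were Zfp146, Zfp865, Zfp820, Zfp408, Zfp651, Zfp938 and Zfp41, at ratios from 0.774 to 0.831. Among those 7 the intervals of Zfp408, Zfp651 and Zfp41 included 1. The plot of the extreme ratios shows that the interval of Zfp385a is the narrowest on the low side and those of Zfp292 and Zfp593 the narrowest on the high side.

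**Figure D2:**
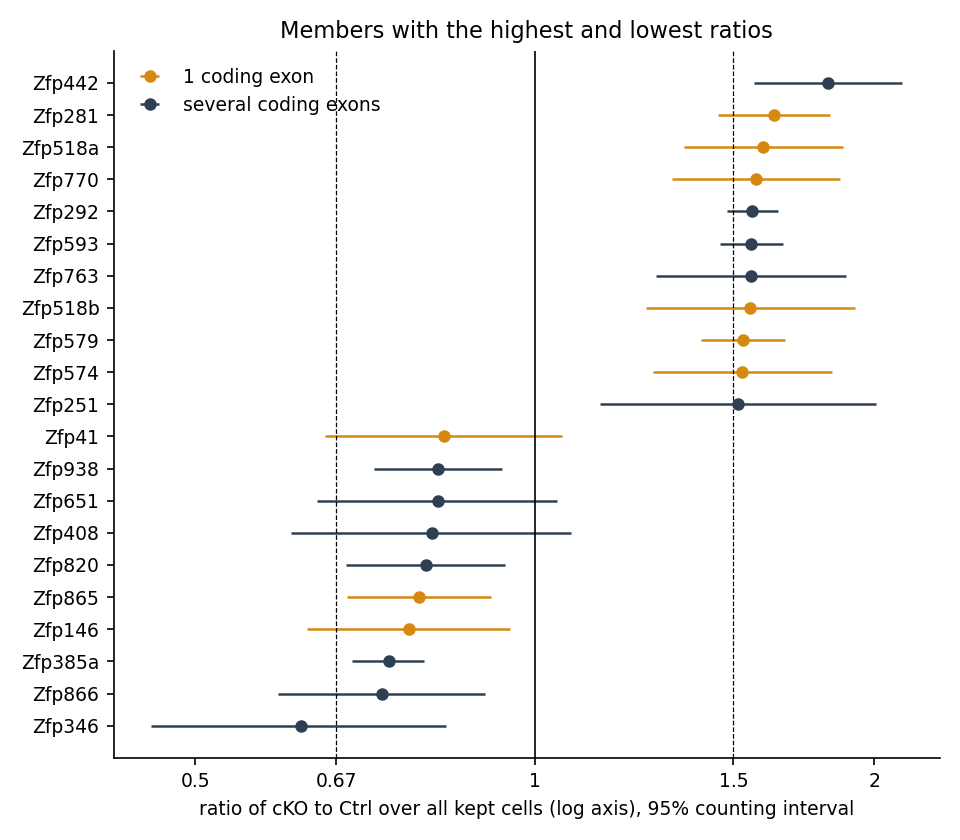
Ratio of cKO to Ctrl over all kept cells (log axis) with its 95% counting interval for the 11 members at or above 1.5 and the 10 lowest members; dashed lines mark a 1.5-fold difference and orange marks genes with 1 coding exon. Of the 11 members on the high side 6 have 1 coding exon, and 3 of the 10 on the low side do.

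The 5 members with the most UMIs had ratios between 0.913 and 1.08. Tags of the 3′ end count molecules irrespective of transcript length, so these levels were not divided by length. Zfp706, known for easing mouse embryonic stem cells out of self-renewal, had 14698 and 10433 UMIs (335 and 306 CPM, ratio 0.913, 0.890 to 0.936). Zfp36l1 had 11171 and 9381 UMIs (255 and 275 CPM, ratio 1.08, 1.05 to 1.11). Zfp207, also called BuGZ, a microtubule- and BUB3-binding protein of the kinetochore, had 8208 and 6576 UMIs (187 and 193 CPM, ratio 1.03, 0.997 to 1.06). Zfp36l2 had 4871 and 3807 UMIs (111 and 112 CPM, ratio 1.01, 0.963 to 1.05). Zfp644, whose human counterpart also partners G9a and GLP, had 3604 and 2851 UMIs (82.1 and 83.6 CPM, ratio 1.02, 0.968 to 1.07). For the last 3 of these genes the interval included 1. Other well-counted members lay higher: besides Zfp292, Zfp637 had 2573 and 2945 UMIs, a ratio of 1.47 (1.40 to 1.55), and Zfp64 had 3228 and 3060 UMIs, a ratio of 1.22 (1.16 to 1.28). Zfp637 and Zfp64 were picked after the values were seen.

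The mRNA-decay factors of the family had ratios between 1.01 and 1.08 over all kept cells. Zfp36, the founding member tristetraprolin, had 1673 and 1317 UMIs (38.1 and 38.6 CPM, ratio 1.01, 0.941 to 1.09). The summed level of Zfp36, Zfp36l1 and Zfp36l2 was 404 CPM in Ctrl and 425 CPM in cKO, a ratio of 1.05 (1.03 to 1.08). Of 17 genes of the deadenylation machinery with which these proteins act, 0 were 1.5-fold higher or lower, against 4.71% and 1.47% of all genes, and their median log2 ratio was 0.00, between −0.36 for Pan2 and 0.30 for Tob1. Without Zfp36, Zfp36l1 and Zfp36l2 the members' summed ratio was 1.10 (1.09 to 1.11).

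The 5 X-linked members, which share their chromosome with Xist, lay on both sides of 1. Zfp182 had 125 and 142 UMIs (ratio 1.46, 1.14 to 1.87) and Zfp275 had 205 and 203 (1.27, 1.04 to 1.55). Zfp711 (1.04), Zfp280c (0.944) and Zfp185 (0.838) lay nearer to 1 or below it. The median log2 ratio was 0.05 over these 5 and 0.18 over the 229 autosomal members, and −0.03 over 318 other X-linked genes.

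The ratios were read next against the structure of the genes, with the longest annotated coding transcript of each. Members with a long coding exon lay higher than members without one. The 96 members with a coding exon of at least 1500 bases had a median log2 ratio of 0.29, and 10 of them (10.4%) were 1.5-fold higher, against 9.42% of 531 other genes with such an exon. These 10 were all but 1 of the 11 higher members. The exception was Zfp593, whose longest coding exon has 200 bases. Medians were 0.17 for the 75 members with a longest coding exon from 1000 to under 1500 bases, 0.16 for the 36 with 500 to under 1000 bases and −0.04 for the 27 below 500 bases. Zfp346, Zfp385a and Zfp706, with longest coding exons of 234, 243 and 135 bases, are among those 27.

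Other genes followed the same order in their medians. These were 0.19 (531 genes), 0.18 (563 genes), 0.13 (1545 genes) and −0.03 (7092 genes) from the longest to the shortest class. The shares of large increases differed in the middle classes. Of the 75 members from 1000 to under 1500 bases 0 were 1.5-fold higher, against 7.82% of other genes. Of the 36 members from 500 to under 1000 bases 0 were, against 9.06%. Below 500 bases the shares were 3.70% of members and 3.03% of other genes. Members had longer coding exons than other genes did, since the median longest coding exon was 1388 bases in the members and 264 bases in 9731 other coding genes. Over genes, Spearman's rho between the log2 ratio and the longest coding exon was 0.34 in the 234 members and 0.29 in the other genes. Genes share a library and are not independent replicates, so these values describe the 2 libraries alone.

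The number of coding exons sorted the members as well. The 25 members with 1 coding exon had a median log2 ratio of 0.33, and 6 of them (24.0%) were 1.5-fold higher: Zfp281, Zfp518a, Zfp518b, Zfp770, Zfp579 and Zfp574. All 6 were among the 14 members with 1 coding exon of at least 1500 bases (42.9%), and none of the 11 with a shorter single exon was. Zfp865, Zfp146 and Zfp41 also have 1 coding exon and lay among the 10 lowest ratios. Of other genes, 20.4% of 98 with a single coding exon of at least 1500 bases and 22.4% of 411 with a shorter one were 1.5-fold higher. Medians fell to 0.22 in 145 members with 2 to 5 coding exons and to 0.08 in 64 members with 6 or more. Other genes gave 0.30 (509 genes, of which 112 were 1.5-fold higher), 0.12 (2300 genes) and −0.02 (6922 genes). With 2 to 5 coding exons 2.76% of members were 1.5-fold higher, against 9.09% of other genes, and with 6 or more 1.56% against 1.85%. In the plot by structure the medians of members and other genes fall within each other's quartiles in every class.

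**Figure D3:**
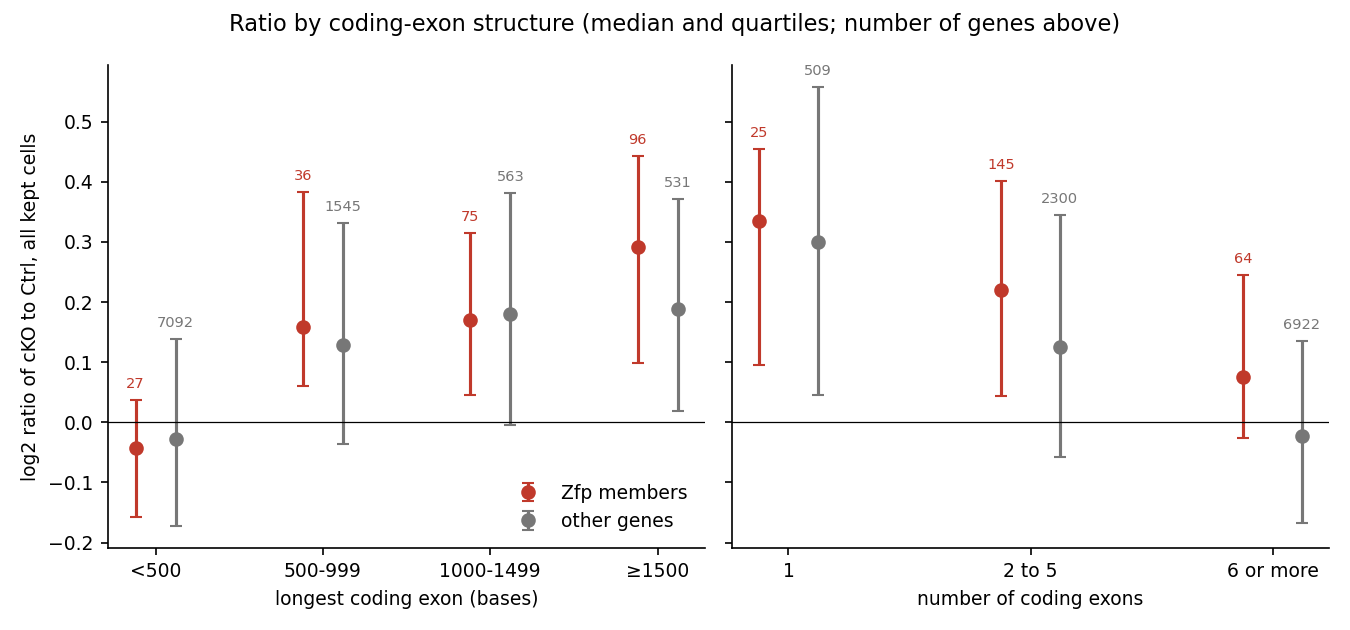
Median log2 ratio of cKO to Ctrl over all kept cells (points) with the quartiles over genes (bars) by longest coding exon in bases (left) and by number of coding exons (right), for Zfp members (red) and other genes (grey), with the number of genes above each bar. Members rise from −0.04 below 500 bases to 0.29 at 1500 bases or more, and other genes from −0.03 to 0.19.

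The number and position of C2H2 patterns moved with exon structure. The KRAB classes differed less, with median longest coding exons of 1426 bases with the pattern and 1274 bases without it. The 87 members with the KRAB pattern had a median log2 ratio of 0.23, with 2 (Zfp442 and Zfp763, 2.30%) 1.5-fold higher, and the 147 without it had 0.14, with 9 (6.12%) higher and 1 (0.68%) lower, against 4.71% and 1.47% of all genes. The 27 other genes with the KRAB pattern had a median of 0.34, with 22.2% higher, and the 97 other genes with 5 or more C2H2 patterns had 0.18, with 10.3% higher. The 117 members with 10 or more C2H2 patterns had a median of 0.26, the 69 with 5 to 9 had 0.15 and the 39 with 1 to 4 had 0.08. Members whose C2H2 patterns all lay in the last coding exon (166) had a median of 0.24, and those with patterns also in earlier exons (59) had 0.04. Median longest coding exons of these last classes were 1434 and 683 bases, so finger number, finger position and exon length cannot be told apart here. Of the 15 measured corepressor partners of KRAB proteins 0 were 1.5-fold higher or lower, against the same shares of all genes, with a median of 0.08. Trim28 had 149 and 128 CPM (ratio 0.860, 0.828 to 0.894) and Setdb1 17.1 and 24.2 CPM (ratio 1.41, 1.28 to 1.56).

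Other sets of genes, taken by zinc finger symbol prefix, lay on both sides of the members. The 35 measured Zbtb symbols had a median log2 ratio of 0.27, with Zbtb21 1.5-fold higher. They include Zbtb8os and Zbtb11os1, which are named as opposite-strand genes and not as Zbtb genes themselves. The 7 Zkscan genes had 0.22, with Zkscan6 at 171 and 281 UMIs (ratio 2.11, 1.74 to 2.57). The 12 Klf genes had 0.07, the 6 Zscan genes 0.07, the 18 Zdhhc genes, which encode palmitoyltransferases, 0.01, and the 12 Zc3h genes, with CCCH fingers, −0.01.

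Cells were then sorted by marker genes into 4 gates, each a range of summed marker CPM and not a cell type. The suprabasal gate took cells with Krt1 and Krt10 at 5000 CPM or more (386 Ctrl and 270 cKO cells). The HF WNThi gate of the hair follicle took 300 CPM of Shh, Dkk4, Fgf20, Edar, Bmp2 and Wnt10b (385 and 381 cells), and the HF WNTlo gate 400 CPM of Sox9, Krt79, Lhx2, Nfatc1 and Cd34 (640 and 631 cells). The basal gate took Krt14 and Krt5 at 3000 CPM or more with every other epithelial score well under its cut (2353 and 1702 cells). These cuts were set after the values had been seen. Cells past both follicle cuts went to the HF WNThi gate. Outside the gates were 614 Ctrl and 538 cKO cells that met no definition and 58 and 45 with markers of other cell types. Another 11 and 10 cells passed the suprabasal cut and a follicle cut and were also left out. Cells within 20% of a cut numbered 31 to 427 per gate and library, and 187 Ctrl and 109 cKO cells lay that near the HF WNThi cut. Krt14 in the basal gate itself was 10477 CPM in Ctrl and 7802 CPM in cKO, so cells of a gate were not alike in the libraries.

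In each of the 4 gates the members' median ratio lay above that of all genes, and their share of large increases lay above the background. In the basal gate all 234 members reached 50 UMIs, and 25 (10.7%) were 1.5-fold higher and 2 (0.85%) lower, against 6.09% and 2.19% of all genes, with a median log2 ratio of 0.17 against 0.02. In the suprabasal gate 126 members did, with 18 (14.3%) higher and 6 (4.76%) lower, against 9.31% and 3.89%, and a median of 0.12 against 0.02. In the HF WNThi gate 145 did, with 16 (11.03%) higher and 1 (0.69%) lower, against 6.99% and 3.81%, and a median of 0.11 against 0.00. In the HF WNTlo gate 203 did, with 15 (7.39%) higher and 6 (2.96%) lower, against 4.43% and 2.94%, and a median of 0.09 against −0.03. The gates share their libraries, members at 50 UMIs have wide intervals, and members had fewer UMIs over all kept cells (median 723) than other coding genes (median 1598). The part of these low counts in the shares was not tested. The 16 higher members of the HF WNThi gate became 10 with gate cuts doubled and 31 with cuts halved, and the 18 of the suprabasal gate became 11 without the 5% of cells with the most UMIs.

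The extreme members differed from gate to gate. In the basal gate Zfp251 was highest, at 1.59 and 3.22 CPM (ratio 2.03, 1.31 to 3.17), and Zfp346 lowest, at 3.13 and 1.58 CPM (0.504, 0.309 to 0.798). In the suprabasal gate Zfp787 was highest, at 6.56 and 17.0 CPM (2.59, 1.63 to 4.16), and Zfp949 lowest, at 10.8 and 5.97 CPM (0.553, 0.308 to 0.953). In the HF WNThi gate Zfp707 was highest, at 4.19 and 10.2 CPM (2.44, 1.30 to 4.81), and Zfp820 lowest, at 9.49 and 5.26 CPM (0.554, 0.295 to 1.01). In the HF WNTlo gate Zfp750 was highest (2.55, 1.59 to 4.19) and Zfp866 lowest, at 6.10 and 2.81 CPM (0.461, 0.239 to 0.852).

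Zfp442 and Zfp593 kept a ratio above 1 in every gate. Zfp442 stood at 1.89 in the basal, 2.17 in the suprabasal, 1.23 in the HF WNThi and 1.92 in the HF WNTlo gate, the HF WNThi interval reaching from 0.788 to 1.94. Zfp593 stood at 1.65, 1.58, 1.35 and 1.70 in the same order, with each interval above 1. Zfp292 stood at 1.66 (1.54 to 1.78), 1.59 (1.31 to 1.94) and 1.75 (1.497 to 2.06) in the first 3 gates and at 1.12 (0.982 to 1.29) in the HF WNTlo gate. Zfp518a likewise had 1.71, 2.14 and 1.93 in the first 3 and 0.786 (0.519 to 1.18) in the HF WNTlo gate. Zfp579 had 1.45, 1.996 and 1.96 in the first 3 and 1.14 (0.921 to 1.42) in the last. Zfp281 was high in the basal (1.51), HF WNThi (1.70) and HF WNTlo (1.86) gates and had 21 and 22 UMIs in the suprabasal gate. No test of a difference between gates was possible with 1 library per condition.

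Zfp385a lay below 1 in all 4 gates, at 0.778, 0.651, 0.695 and 0.811 in the same order, and no interval reached 1. Zfp36 differed in sign between gates. It stood at 50.1 and 68.0 CPM in the HF WNTlo gate (ratio 1.36, 1.16 to 1.58) and at 55.7 and 43.3 CPM in the suprabasal gate (0.779, 0.629 to 0.961), with 0.927 and 0.857 in the basal and HF WNThi gates. Zfp36l1 was 1.12 (1.08 to 1.16) in the basal gate and 0.911 (0.796 to 1.04) in the suprabasal gate. For Zfp36l2 the interval included 1 in every gate.

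**Figure D4:**
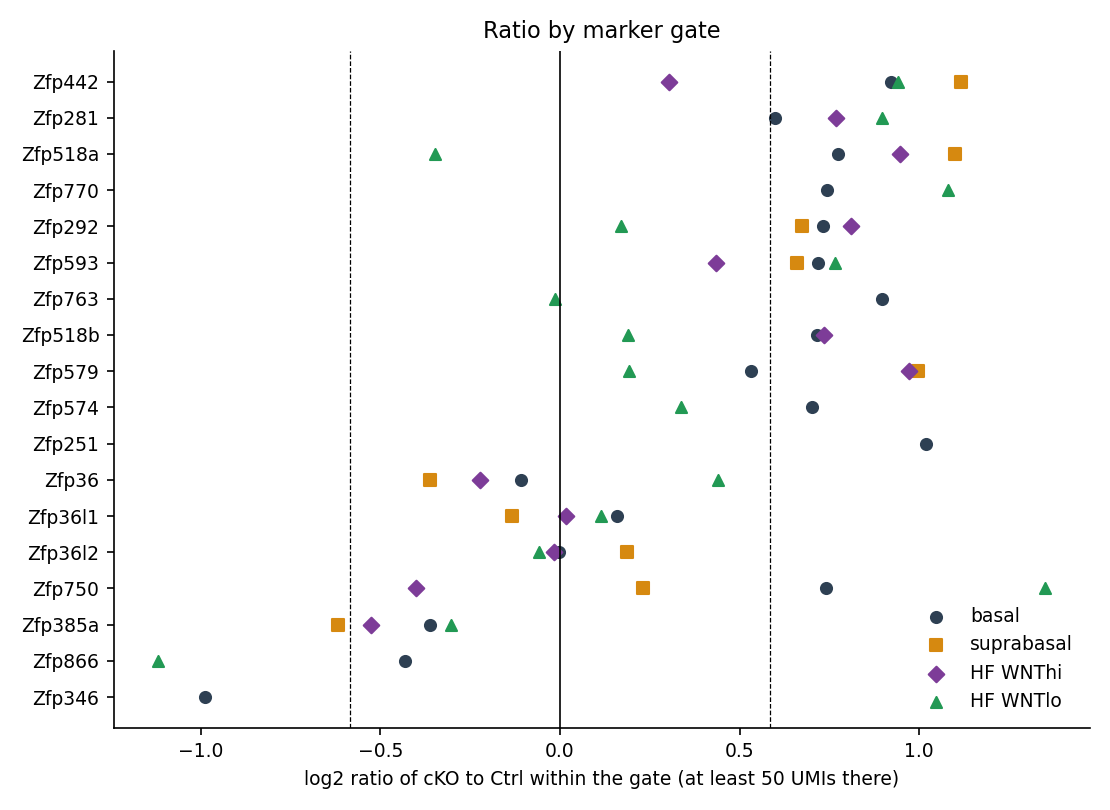
Log2 ratio of cKO to Ctrl within each marker gate (symbols) for the 11 members at least 1.5-fold higher over all kept cells and for 7 others named in the text, shown where a member had at least 50 UMIs in the gate; dashed lines mark a 1.5-fold difference. Zfp292, Zfp518a and Zfp579 lie lower in the HF WNTlo gate than in the other 3, and Zfp385a lies below 0 in all 4.

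Few members were called specific to a layer. A member was called specific to a gate when its CPM there was at least 2 times that of each other gate in both libraries, with at least 30 UMIs. This held for 4 members in the suprabasal gate (1.71%, against 2.7% of all genes) and for 0 in the basal (0.187% of all genes), HF WNThi (0.805%) and HF WNTlo (2.18%) gates. The 4 were Zfp750, Zfp185, Zfp706 and Zfp667, and of these Zfp750 and Zfp185 carried no C2H2 pattern.

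Zfp750, whose human counterpart ZNF750 drives terminal differentiation of epidermal cells, had the sharpest contrast. In Ctrl it stood at 120.4 CPM (569 UMIs, 110.7 to 131) in the suprabasal gate and at 8.03, 8.09 and 4.40 CPM in the basal, HF WNThi and HF WNTlo gates. In cKO it stood at 141 CPM (450 UMIs, 129 to 155) and at 13.4, 6.14 and 11.2 CPM. The suprabasal level was thus 14.9 times that of the next gate in Ctrl and 10.5 times in cKO. Its ratio of cKO to Ctrl was 1.17 (1.03 to 1.33) in the suprabasal gate, 1.67 (1.37 to 2.04) in the basal gate and 2.55 in the HF WNTlo gate, where it rested on 26 and 64 UMIs.

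Free RNA carried Zfp750 as well. Barcodes with 10 to 100 UMIs, which hold RNA from outside cells, had 13.0 CPM of it in Ctrl and 22.8 in cKO. Outside the suprabasal gate its 2 marker keratins differed in direction. Krt1 stood at 96.2 and 123 CPM in the basal, 64.5 and 62.5 CPM in the HF WNThi and 79.3 and 90.3 CPM in the HF WNTlo gate. Krt10 was lower in cKO in all of them, at 179 and 157, 162 and 152, and 157 and 149 CPM in the same order. The level of Zfp750 outside the suprabasal gate lay below that of free RNA in the basal, HF WNThi and HF WNTlo gates of both libraries. The subtraction given with the processing alternatives covered its ratio over all kept cells and its call as specific to the suprabasal gate. The part of free RNA in its levels and ratios in the other gates was not tested.

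The other 3 differed by less than 1.5-fold between libraries in the suprabasal gate. Zfp185, which encodes an actin-associated LIM-domain protein, had 50.8 CPM (240 UMIs) in Ctrl and 49.0 CPM (156 UMIs) in cKO in the suprabasal gate, against at most 5.93 CPM in any other gate of either library. In the HF WNTlo gate it had 5.93 and 3.34 CPM (35 and 19 UMIs, ratio 0.563, 0.304 to 1.01). Zfp706 had 799.9 CPM (774.6 to 826) and 680 CPM (652 to 709) there, 2.82 and 2.41 times the basal level, and was the 1 member of the 4 whose suprabasal ratio lay below 1 beyond its interval (0.850, 0.806 to 0.896). Zfp667 had 12.7 CPM (60 UMIs) and 11.9 CPM (38 UMIs), 3.12 and 2.21 times the next gate. In the basal gate it had 3.31 and 5.41 CPM (77 and 89 UMIs, ratio 1.63, 1.19 to 2.25).

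**Figure D5:**
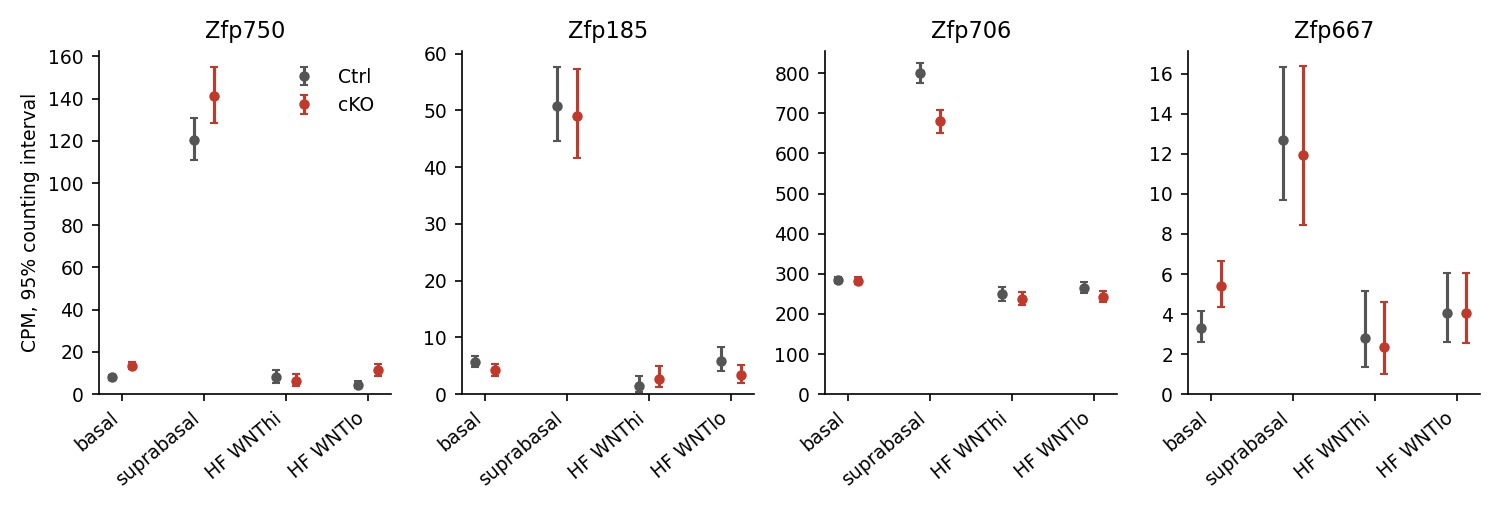
Level of the 4 members specific to the suprabasal gate, in CPM with 95% Poisson intervals, by marker gate in the Ctrl (grey) and cKO (red) libraries; each panel starts at 0 and has its own scale. In each panel the suprabasal points of both libraries lie above all other gates, at 120.4 and 141 CPM for Zfp750.

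More members were low than high in the suprabasal gate. Its level was the lowest of the 4 gates in both libraries for 121 members (51.7%, against 40.5% of all genes), and the HF WNTlo gate was the highest for 85 (36.3%, against 32.4%). The median ratio of the suprabasal to the basal level was 0.81 in Ctrl and 0.78 in cKO over members, and 0.91 and 0.93 over all genes. Members at most 0.5 times every other gate in both libraries numbered 12 in the suprabasal gate (5.13%, against 7.14% of all genes) and 1, Zfp608, in the HF WNThi gate (0.43%, against 0.55%). These 13 were chosen after their values were seen, by a rule without a minimum of UMIs in the gate. Zfp608 rested on 2 UMIs per library in the HF WNThi gate.

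Among the 12, Zfp326, whose human counterpart belongs to the DBIRD complex that links transcription and splicing, had the most UMIs. It stood at 52.6, 17.8, 76.5 and 82.7 CPM in the basal, suprabasal, HF WNThi and HF WNTlo gates of Ctrl and at 48.7, 19.2, 68.4 and 76.7 CPM in cKO. Zfp219 followed with 37.8, 18.2, 41.3 and 41.5 CPM in Ctrl and 33.3, 16.0, 35.9 and 34.2 CPM in cKO. Zfp281, one of the members with a high ratio, stood at 13.5, 4.44, 14.2 and 12.5 CPM and at 20.5, 6.91, 24.3 and 23.4 CPM. Zfp57, known for keeping imprints, had 2 UMIs in Ctrl and 1 in cKO in the suprabasal gate and 55 and 58 in the basal gate. The others were Zfp462, Zfp618, Zfp606, Zfp90, Zfp37, Zfp827, Zfp184 and Zfp41. Of these, Zfp37, Zfp827, Zfp184 and Zfp41 had 3 to 8 UMIs per library in the suprabasal gate.

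Of 15 measured regulators of epidermal differentiation that act beside Zfp750, 2 were 1.5-fold higher and 0 lower over all kept cells, against 4.71% and 1.47% of all genes. A ratio above 1 was found in 10 of them, with a median log2 ratio of 0.11. Prdm1 had 4.44 and 7.12 CPM (ratio 1.60, 1.32 to 1.94) and Hes1, a Notch effector, 1.54 (1.46 to 1.63). For HES1 protein the paper reports the other direction, a decrease in cKO skin by immunofluorescence at a slightly earlier stage. Protein was not measured in these libraries. Klf4, a barrier regulator, was at 157 and 159 CPM (1.01, 0.973 to 1.05), and Maf was lowest at 0.785 (0.653 to 0.941).

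Within the basal gate, cells were split by summed cell cycle markers into M-phase cells (768 Ctrl and 541 cKO), S-phase cells (544 and 456) and other basal cells with low scores for both (614 and 308). These names stand for ranges of summed marker CPM and not for a measured stage, and cells past both cuts were counted as M-phase. Few members were called by stage. In S-phase cells 5 members (2.14%, against 5.72% of all genes) were at least 1.5-fold higher than in other basal cells in both libraries and 8 (3.42%, against 2.53%) at least 1.5-fold lower. In M-phase cells 6 (2.56%, against 6.14%) were higher and 5 (2.14%, against 2.68%) lower. A call of higher needed at least 30 UMIs in the stage over both libraries, and a call of lower had no minimum. All these shares are of all members and of all genes with at least 200 UMIs, and members had fewer UMIs than other coding genes. The part of this rule in the shares was not tested. Of the 8 lower in S-phase cells, Zfp446, Zfp251 and Zfp608 rested on 3 to 10 UMIs per library there.

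Among the 5 members higher in S-phase cells Zfp367 had the largest contrast, with 21.0 CPM against 4.78 CPM in Ctrl (4.39-fold, 2.81 to 7.13) and 15.9 against 6.59 CPM in cKO (2.41-fold, 1.38 to 4.45). Zfp101 was higher in both stages. It stood at 23.9 CPM in S-phase, 34.5 CPM in M-phase and 13.3 CPM in other basal cells of Ctrl, and at 28.4, 33.2 and 15.2 CPM in cKO. Its M-phase contrast was 2.59-fold (1.98 to 3.42) in Ctrl and 2.18-fold (1.53 to 3.19) in cKO. Zfp956 in S-phase (2.16-fold and 2.30-fold) and Zfp626 (1.92-fold and 1.76-fold) and Zfp518b (1.79-fold and 1.66-fold) in M-phase rested on 20 to 46 UMIs per library. Zfp281, on the other hand, was lower in S-phase cells, at 9.56 against 15.1 CPM in Ctrl (0.632-fold, 0.435 to 0.911) and 0.665-fold (0.449 to 0.987) in cKO. This contrast of Zfp281 was picked after the values were seen.

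Reads that could come from several genes limit some of these values. Many Zfp genes arose by duplication, but the genes that shared sequence with a member were not identified. Whether they are duplicates or overlapping neighbours was not tested. In the last 500 bases of each member's annotated transcript, where 3′ tags fall, the share of 57-base words (the read length) also found in transcripts of another gene on either strand was 0 in most members, above 0 in 40 and at least 50% in 9. Among members named above it was 100% for Zfp142, 62.4% for Zfp90, 43.2% for Zfp330, 42.6% for Zfp706, 36.9% for Zfp36l1, 35.1% for Zfp865, 25.9% for Zfp747, 24.8% for Zfp219, 16.4% for Zfp442 and 12.2% for Zfp593, and their levels are less certain for it.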

How the data were processed

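Single-cell RNA of E17 skin epithelium was measured in 1 Ctrl and 1 cKO library with the 10x Genomics 3′ kit (V2). The deposited matrices hold raw UMI counts for each gene in each barcode, obtained by the authors through Cell Ranger with mm10 as reference. The submitters' processing notes give version 2.0 while the methods name a later one, and the annotation release is not given in the sources used here. All 737280 possible barcodes are listed, so the files precede any cell filter. The study's own minimum of 1800 detected genes per barcode was applied. Doublets were not called; an alternative left out the 5% of cells with the most UMIs.

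UMIs were summed per library and gate and scaled to CPM by the summed total. Intervals at 95% were exact Poisson for CPM and exact conditional binomial for ratios. The ratio intervals were tried on simulated Poisson sums, the model they assume, without spread between cells or embryos. With 1 library per condition no test was run. "Higher" and "lower" mean a ratio past 1.5-fold, set beside the percent of all genes with at least 200 UMIs (in a gate, at least 50 there) past it. M-phase cells had 1000 CPM of Mki67, Top2a, Cenpf, Ccnb1, Hmmr, Nusap1 and Tpx2, and S-phase cells 600 CPM of Dtl, Hells, Clspn, Mcm10, E2f8, Exo1, Uhrf1 and Rrm2. Cells past both cuts were counted as M-phase. Cells with 500 CPM of Merkel, neural crest, immune or endothelial markers, or 10000 CPM of mesenchymal markers, were in no gate. Free RNA was read from barcodes with 10 to 100 UMIs. Gene structure and protein patterns came from GENCODE on GRCm38, which held all 368 Zfp symbols by gene ID; a C2H2 pattern was 2 cysteines 2 to 4 residues apart, 12 residues, and 2 histidines 3 to 5 residues apart.

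Named members were the 10 highest and 10 lowest ratios over all kept cells, the 5 with the most UMIs, the highest and lowest in each gate, those specific to a gate, up to 3 per cell cycle stage, Zfp36, Zfp36l1, Zfp36l2 and Zfp750, those beside the 200 UMI minimum and X-linked members; all others were chosen after their values were seen. The members, lists and tests were chosen with earlier results of these data known. Python 3.11.15 with numpy 2.4.6, scipy 1.17.1, pandas 2.3.3 and matplotlib 3.10.9 was used.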

Additional observations from a re-analysis of the deposited data

How the results depend on the processing

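No paired analysis was possible because each condition has 1 library, and for the same reason no library could be left out. Intervals cover counting error only, and near the minimum of 200 UMIs they are wide (0.966 to 1.71 for Zfp319). Scaling by TMM or the median of ratios moved all ratios by 0.03 on the log2 scale. Each of the 43 named members kept its log2 ratio over all kept cells within its own interval's half-width under all 6 alternatives tried for it (258 values). TMM, the median of ratios and a total without the most abundant genes are among the 6. Each of these shifts every gene by 1 small amount, below the median half-width of 0.22, so their agreement was nearly fixed in advance. The median log2 ratio of the members, 0.18, ranged from 0.13 with a minimum of 500 UMIs to 0.22 with no minimum over the alternatives.

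Over all kept cells the count of 11 members higher fell to 7 with a minimum of 500 UMIs and rose to 47 with no minimum, where 12 were lower. The count of 1 lower (Zfp346) became 0 with a minimum of 500 UMIs and with at least 2500 genes per cell. In the suprabasal gate 11 were higher and 3 lower without the 5% of cells with the most UMIs, and 3 were lower with gate cuts doubled. In the HF WNThi gate 10 were higher with gate cuts doubled and 31 with cuts halved. There 2 were lower with equal weight for each cell, with at least 1000 genes per cell, without the 5% of cells with the most UMIs, with 5% free RNA subtracted, and with cuts doubled or halved. All other counts stayed within 1.5 times. The number of members specific to a gate was 4 or 5. Zfp750, Zfp185 and Zfp706 were specific under every alternative tried; Zfp667 was not with cuts doubled, where Zfp692 and, in the HF WNThi gate, Zfp566 were, and Zfp692 was also specific with TMM.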
